A study of Homo sapiens with 4 samples.

Results

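The genes described here are 36 genes of antigen processing and HLA class I and class II presentation, chosen by name. A gene was a member when a probe on the array that is not a control carried its gene name in all 4 scanner files, and the members were then grouped by role into class I heavy chains with B2M (6 genes), peptide supply (7), peptide transport and loading (7), transcription regulators (3), class II (11) and stress ligands (2). All 36 were on the array, through 81 of 41000 gene probes, and all 36 were among the 27196 genes left by a filter on dim probes, out of 29123 gene names. A2780s is an established human epithelial ovarian cancer (EOC) cell line. Total RNA from each of 4 KO clones was hybridized on an Agilent 2-colour array against RNA from mock-transfected A2780s cells (Ctrl), with Ctrl in Cy3 and KO in Cy5 on every array. CRISPR/Cas9 with a repair plasmid and puromycin selection gave the 2 GALNT3 KO clones, and shRNA against GALNT6, delivered by lentivirus into GALNT3 KO clones, gave the 2 clones labelled GALNT3/T6 KO. The arrays of the latter are called GALNT3/T6-labelled, for a reason given with GALNT3 itself. GALNT3 and GALNT6 are enzymes that start mucin-type O-glycosylation. Each array is thus a separate clone, and the viral transduction with its second selection cannot be told apart from the GALNT6 shRNA. No dye swap was made, so a dye effect cannot be told apart from KO over Ctrl, and no Ctrl sample was hybridized against Ctrl, so the spread of Ctrl is left out of the tests against Ctrl.

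Levels are compared as the log2 ratio, KO over Ctrl, after background correction and loess normalization within each array. limma fitted all 4 arrays together, and a gene was called when its p, adjusted by Benjamini-Hochberg over all genes tested, was 0.05 or less. The quantities given are GALNT3 KO over Ctrl, the GALNT3/T6-labelled arrays over Ctrl, and the difference between the groups. The first and the second share Ctrl as their reference, so their values are set side by side and not tested for overlap. Between 86.9% and 93.8% of gene spots counted as well above background in a given channel, and 0 were saturated. Over all genes the 2 GALNT3 KO arrays correlated at r = 0.835 and the 2 GALNT3/T6-labelled arrays at 0.917, where genes are not independent replicates. GALNT3 itself goes against the second label. On the GALNT3 KO arrays both channels of its single probe were too dim to count as well above background, and the log2 ratio was 4.80 and 5.08 on the GALNT3/T6-labelled arrays, higher in the KO channel. GALNT6 stood at -0.47 and -0.38 on the GALNT3 KO arrays and -0.66 and -0.69 on the GALNT3/T6-labelled arrays. That second group is therefore named by its label throughout. Epithelial markers moved with the same contrast, with 7 of 9 called higher between the groups and 0 lower (KRT18 by 5.09). Of all genes tested, 11.9% were called in each direction. Markers of immune cells did not pass the test between the groups in any of the 10 tested genes by limma, and PTPRC, which marks all leukocytes, differed by 0.04. Their summed KO signal lay between 11219.6 and 12155 on all 4 arrays, and the immune markers CD3D and SPI1 were too dim to be tested. The summed KO signal of the epithelial markers was 9877 to 11622 in GALNT3 KO and 881782 to 947273 on the GALNT3/T6-labelled arrays. KRT18, KRT19 and KRT8 were by far the brightest of them on the latter. The median epithelial marker had a log2 KO signal of 8.41 and 8.47 in GALNT3 KO and 9.28 and 9.75 on the GALNT3/T6-labelled arrays. MUC16 differed by -0.03 and EPCAM was not called. The summed Ctrl signal of the list rose too, from 9264 and 8278 to 46424 and 33680.

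HLA class I molecules are made of a heavy chain and beta-2-microglobulin (B2M) and show peptides from inside the cell to CD8+ T cells. The peptides are cut by the proteasome, whose interferon-induced subunits replace constitutive ones, pumped into the endoplasmic reticulum by TAP1 and TAP2, trimmed there by ERAP1 and ERAP2, and loaded with the help of tapasin (TAPBP) and general chaperones. Class II molecules are heterodimers of an alpha and a beta chain, carry peptides from endosomes to CD4+ T cells, and are mostly made in professional antigen-presenting cells under the coactivator CIITA. NLRC5 plays the matching part at class I promoters, where the RFX complex, CREB and NF-Y bind the upstream elements and interferon response elements lie close by.

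Promoters are shown for 7 members that differed between the groups, since the transcription of these genes is usually described through short elements close to the start site. Each is the stretch of 250 bases before the start site in RefSeq (GRCh38.p14), 5′ to 3′ on the strand of the gene. Capitals mark matches on either strand to 5 short letter strings: GAAANNGAA (core of an interferon response element), TTCNNNGAA (a STAT site), GGGNNTTCC (part of an NF-kB site), TGACG (part of a CRE) and CCAAT (an NF-Y box). HLA-B and B2M are shown as a class I heavy chain and its partner, TAP1 and PSMB9 because they are neighbours read in opposite directions, TAPBP as the loading factor, HLA-DPB1 as the class II gene that was called higher between the groups, and PSMB10 as a proteasome subunit that was called lower.
HLA-B (chr6:31357180-31357429, minus strand): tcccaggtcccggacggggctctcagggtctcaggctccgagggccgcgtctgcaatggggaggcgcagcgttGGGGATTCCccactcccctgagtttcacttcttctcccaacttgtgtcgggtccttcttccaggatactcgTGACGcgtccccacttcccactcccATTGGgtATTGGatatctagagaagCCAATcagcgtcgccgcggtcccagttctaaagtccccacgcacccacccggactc
B2M (chr15:44711267-44711516, plus strand): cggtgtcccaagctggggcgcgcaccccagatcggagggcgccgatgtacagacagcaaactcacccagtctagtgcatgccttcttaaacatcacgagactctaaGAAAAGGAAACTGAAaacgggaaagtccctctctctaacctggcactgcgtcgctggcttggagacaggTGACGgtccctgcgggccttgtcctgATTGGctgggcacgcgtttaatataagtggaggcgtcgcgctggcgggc
TAP1 (chr6:32853705-32853954, minus strand): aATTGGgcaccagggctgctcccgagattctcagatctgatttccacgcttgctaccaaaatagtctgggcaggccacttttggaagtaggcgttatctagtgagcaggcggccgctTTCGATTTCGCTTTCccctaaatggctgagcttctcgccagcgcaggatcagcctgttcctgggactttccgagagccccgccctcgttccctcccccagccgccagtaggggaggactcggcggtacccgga
PSMB9 (chr6:32853942-32854191, plus strand): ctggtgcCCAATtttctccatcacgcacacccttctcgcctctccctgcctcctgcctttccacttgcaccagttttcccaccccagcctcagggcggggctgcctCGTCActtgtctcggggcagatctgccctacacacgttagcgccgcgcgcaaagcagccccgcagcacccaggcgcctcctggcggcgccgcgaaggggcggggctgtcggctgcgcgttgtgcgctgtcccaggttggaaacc
TAPBP (chr6:33314079-33314328, minus strand): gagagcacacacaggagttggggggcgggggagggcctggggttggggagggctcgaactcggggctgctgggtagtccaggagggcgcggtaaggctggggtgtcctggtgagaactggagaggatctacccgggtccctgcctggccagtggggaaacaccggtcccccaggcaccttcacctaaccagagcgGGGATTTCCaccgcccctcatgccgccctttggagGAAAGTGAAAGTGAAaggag
HLA-DPB1 (chr6:33075740-33075989, plus strand): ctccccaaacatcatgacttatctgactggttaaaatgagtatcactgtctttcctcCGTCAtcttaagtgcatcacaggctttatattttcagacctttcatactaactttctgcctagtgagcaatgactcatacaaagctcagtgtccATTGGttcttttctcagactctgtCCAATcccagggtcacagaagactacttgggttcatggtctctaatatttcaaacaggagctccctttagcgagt
PSMB10 (chr16:67936851-67937100, minus strand): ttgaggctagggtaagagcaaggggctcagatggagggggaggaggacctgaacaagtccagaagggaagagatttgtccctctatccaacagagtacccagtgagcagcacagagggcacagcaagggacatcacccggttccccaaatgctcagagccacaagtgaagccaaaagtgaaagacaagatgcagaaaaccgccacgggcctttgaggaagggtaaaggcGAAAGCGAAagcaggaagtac

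Of the 36 members, 30 had an entry in the set of RefSeq promoters used here. HLA-E, PDIA3, NLRC5, CIITA, HLA-DRA and CTSS had none in that set. The interferon response element core was found in 10 of the 30 member promoters (33.3%), against 6.88% of 35116 promoters of the same length. Each member counted through a single entry, while the 35116 were not reduced to a single entry for each gene. Those 10 were CD74, HLA-F, HLA-DRB1, TAP2, TAP1, HLA-DMB, TAPBP, PSME2, B2M and PSMB10. The B2M, TAP1 and TAPBP promoters each held 2 overlapping or neighbouring matches, which began 144 and 138, 133 and 127, and 20 and 14 bases before the start site. CCAAT was found in 20 of 30 (66.7%, against 32% of all), TGACG in 10 (33.3%, against 21.2%), the NF-kB string in 4 (13.3%, against 5.78%) and the STAT string in 1, HLA-DQA1 (3.33%, against 6.57%). In HLA-B the NF-kB string began 177 bases, TGACG 106 bases and the CCAAT matches 81, 74 and 56 bases before the start site. The start sites of TAP1 and PSMB9 lie 488 bases apart. A match is only a description of letters. Of the 10 genes with the interferon core, 4 were called higher and 1 lower between the groups, with a median difference of -0.01, and of the 20 without it 6 were called higher and 1 lower, with a median difference of 0.55. Over all genes tested the share called was 11.9% in each direction.

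Few of the 36 members were called in GALNT3 KO, and most were called on the GALNT3/T6-labelled arrays. In GALNT3 KO over Ctrl, 1 member, HLA-DMA, was called higher, where 4.77% of all genes tested were called higher, and 0 members were called lower, where 6.39% of all genes were. At an unadjusted p under 0.05 limma gave 12 of the 36 in either direction, and the methods' t-test gave 4 unadjusted and 0 adjusted. The share of all genes at an unadjusted p is not given here, so the 12 and the 4 cannot be read as an excess. The median member stood at a log2 ratio of 0.07, against 0.02 over all genes. On the GALNT3/T6-labelled arrays, 22 members were higher than Ctrl, where 24.8% of all genes were, and 4 were lower, where 23.1% of all genes were. The median member stood at 0.50, against 0.03 over all genes. Between the groups, 11 members were higher on the GALNT3/T6-labelled arrays, where 11.9% of all genes were, and 2 were lower, PSMB10 and RFX5, where 11.9% of all genes were. The median difference was 0.34 over the members and -0.00 over all genes. The 11 were HLA-B, HLA-C, HLA-E, HLA-F, HLA-G, B2M, PSMB8, PSMB9, TAP1, TAPBP and HLA-DPB1.

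**Figure D1:**
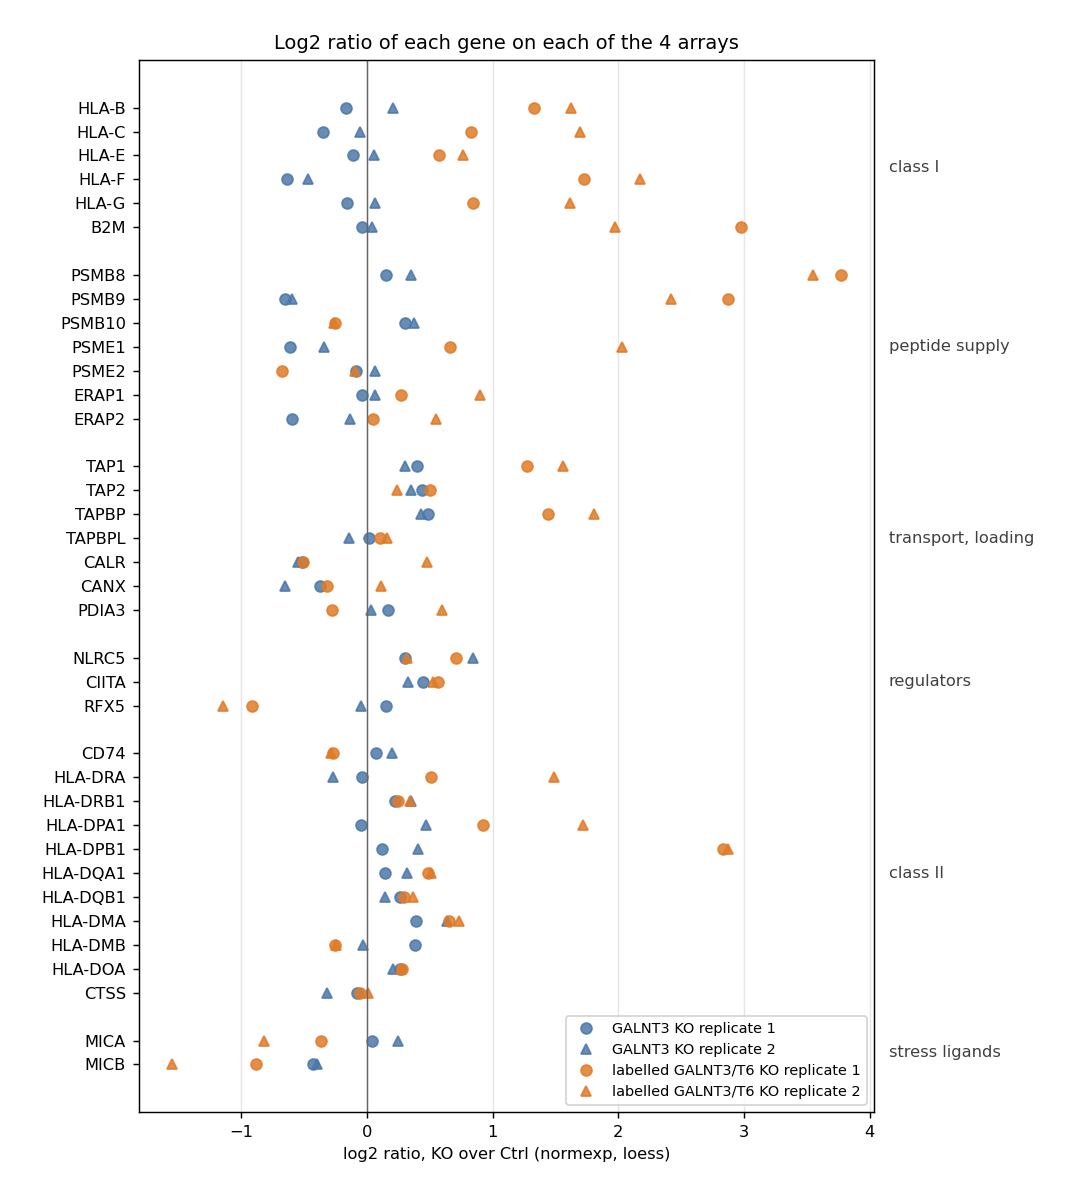
Log2 ratio of KO over Ctrl (x axis) of each of the 36 genes (rows, grouped by role) on each array, with GALNT3 KO in blue and the GALNT3/T6-labelled arrays in orange, circles for replicate 1 and triangles for replicate 2. In all 6 class I rows both orange symbols lie to the right of both blue symbols, and PSMB8 reaches 3.77 and 3.55.

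All 6 of the class I genes were higher on the GALNT3/T6-labelled arrays, both against Ctrl and against GALNT3 KO, and 0 of the 6 passed the test in GALNT3 KO over Ctrl. HLA-B, a classical heavy chain that presents peptides to CD8+ T cells, stood at -0.17 and 0.20 on the GALNT3 KO arrays and 1.33 and 1.62 on the GALNT3/T6-labelled arrays. HLA-C, a classical heavy chain that is also read by killer cell receptors, stood at -0.35 and -0.06 and 0.83 and 1.69. For both genes the GALNT3 KO arrays lay on or near 0 and the other group lay above them without overlap, as it did for 30.0% of all genes tested. HLA-B differed by 1.46 (standard error 0.19, adjusted p = 0.00809 from limma), a 2.75-fold difference in ratio. HLA-C differed by 1.46 (standard error 0.32, adjusted p = 0.0338 from limma), where replicate 2 of the second group was the higher of its pair. The 3 HLA-B probes differed by 1.46 to 2.10 and the 5 HLA-C probes by 1.01 to 2.05, all upward.

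The nonclassical chains moved the same way with different sizes. HLA-F, a nonclassical chain with a restricted surface display, stood at -0.64 and -0.47 on the GALNT3 KO arrays and 1.72 and 2.17 on the GALNT3/T6-labelled arrays. Its GALNT3 KO values lay below Ctrl without passing the test (adjusted p = 0.065 from limma), and its difference between the groups, 2.50 (standard error 0.19, adjusted p = 0.00184 from limma), was the highest of the 5 heavy chains. Its second probe differed by 2.10 but stood above Ctrl on the GALNT3 KO arrays, at 0.42 and 0.20, so its place below Ctrl there rests on the brightest probe. HLA-E, which presents leader peptides of other class I chains to NK cell receptors, stood at -0.11 and 0.06 and 0.57 and 0.76. By the brightest probe it had the lowest difference of the 6 genes, 0.69 (standard error 0.14, adjusted p = 0.026 from limma), and its call was lost with median centring, with Agilent's log ratio, with the deposited values and with the replicate block. Its 2 other probes gave 1.08 and 1.69, and the mean of all 3 gave 1.15 (adjusted p = 0.0138). HLA-G, best known from the placenta, stood at -0.16 and 0.06 and 0.85 and 1.62 through its brightest probe, and differed by 1.28 (adjusted p = 0.036 from limma). Its 2 other probes, which were much dimmer, gave 0.10 and -0.78, and with the mean of all probes the difference was 0.20 and the call was lost (adjusted p = 0.346). The heavy chains are near-identical in sequence over long stretches, so how much of a probe's signal comes from another HLA gene is uncertain for each of them.

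B2M, the invariant light chain that every class I heavy chain needs to reach the cell surface, lies on chromosome 15, away from the others. It stood at -0.04 and 0.04 on the GALNT3 KO arrays and 2.98 and 1.98 on the GALNT3/T6-labelled arrays. The GALNT3 KO values straddled 0 closely, and the 2 arrays of the other group were both far above them but 1.00 apart. Between the groups it differed by 2.48 (standard error 0.35, adjusted p = 0.00975 from limma), or 5.56-fold. A second B2M probe close to background gave 0.51, and with the mean of both probes the difference was 1.49 and kept its call.

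**Figure D2:**
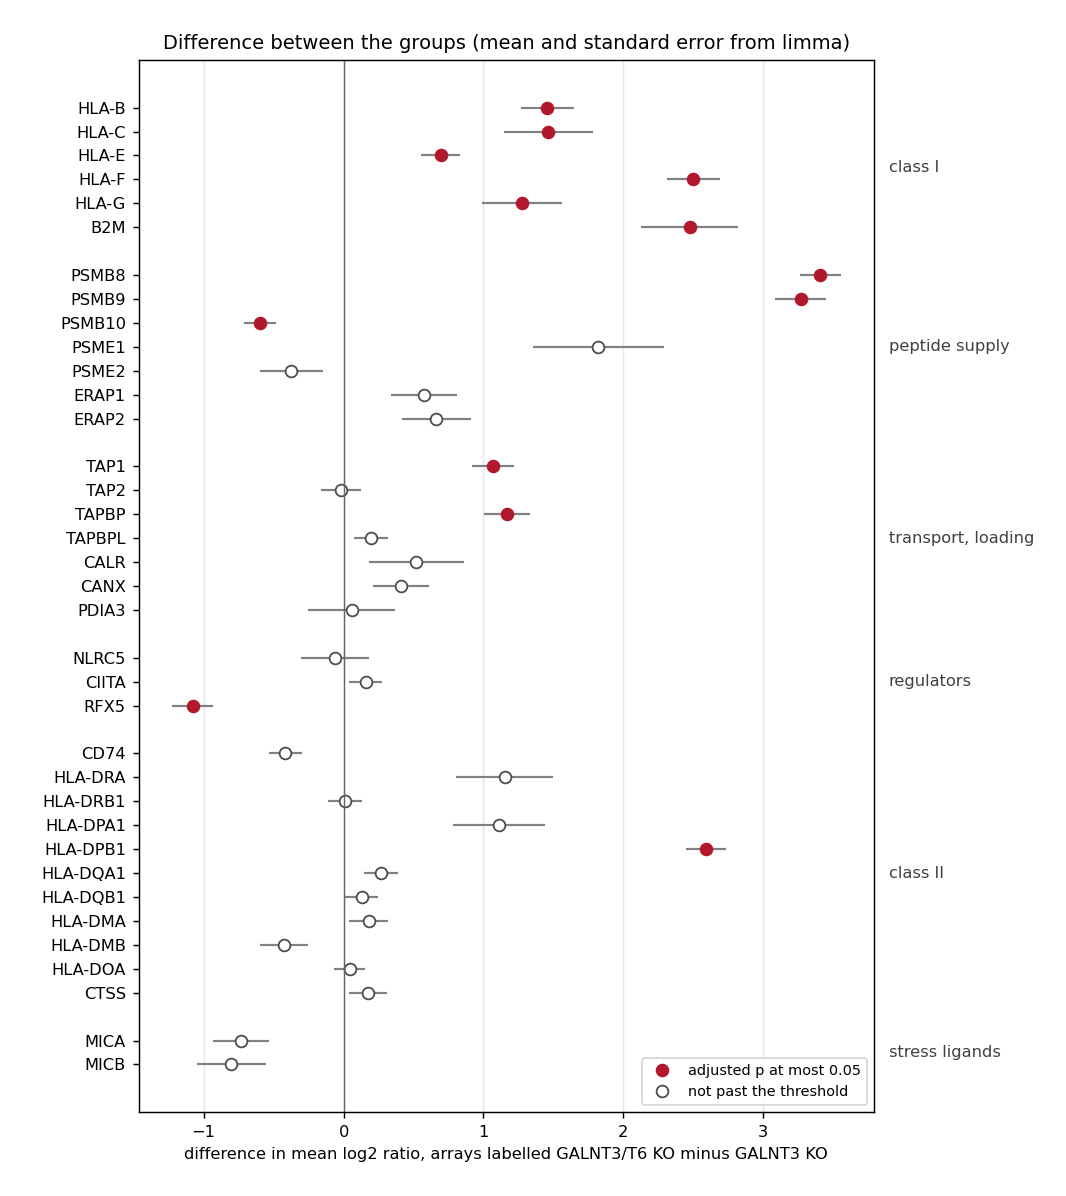
Difference in mean log2 ratio between the GALNT3/T6-labelled arrays and the GALNT3 KO arrays (x axis) for each of the 36 genes (rows, grouped by role), with the standard error from limma as bars and the 13 genes past the threshold as filled red points. All 6 class I points are filled and lie between 0.69 and 2.50, while 10 of the 11 class II points are open.

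The 7 genes of peptide supply split, with the 2 highest differences of all 36 members in the immunoproteasome subunits PSMB8 and PSMB9 and a lower level of the third one. PSMB8, the interferon-induced subunit that takes the place of PSMB5, stood at 0.15 and 0.35 on the GALNT3 KO arrays and 3.77 and 3.55 on the GALNT3/T6-labelled arrays. PSMB9, which takes the place of PSMB6, stood at -0.65 and -0.60 and 2.87 and 2.42. In both genes the arrays of a group lay at most 0.45 apart and the groups lay more than 3 apart. The difference was 3.41 for PSMB8 (standard error 0.15, adjusted p = 0.000531 from limma) and 3.27 for PSMB9 (standard error 0.19, adjusted p = 0.00091 from limma), that is 10.6-fold and 9.63-fold. PSMB9 was below Ctrl in GALNT3 KO, with an adjusted p of 0.0515 from limma that just missed the threshold. The log2 signal of PSMB8 in the Ctrl channel was 7.55 and 6.98 on the GALNT3 KO arrays and 8.52 and 8.41 on the other 2, so that this channel was brighter too where the KO channel was bright. That shift was part of the denominator of the ratio, and its source was not tested. The KO channel of PSMB8 was dim on the GALNT3 KO arrays too, at 7.69 and 7.33. The lowest signal that counted as well above background lay between 6.69 and 6.99 there. The size of the PSMB8 difference therefore rests on a ratio of 2 dim signals in GALNT3 KO.

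PSMB10, the third induced subunit, which takes the place of PSMB7, ran the other way. It stood at 0.30 and 0.37 on the GALNT3 KO arrays and -0.25 and -0.27 on the GALNT3/T6-labelled arrays, so that the 2 groups lay on opposite sides of Ctrl with little spread within either. The difference was -0.60 (standard error 0.11, adjusted p = 0.0223 from limma), and neither group alone passed the test against Ctrl (adjusted p = 0.0616 and 0.0513). The call on the difference was lost with median centring and with the replicate block. PSMB8 and PSMB9 sit in the class II region of chromosome 6 and PSMB10 on chromosome 16.

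The constitutive counterparts were read on the same arrays. PSMB5 stood at 0.36 and 0.34 on the GALNT3 KO arrays and -1.63 and -0.81 on the GALNT3/T6-labelled arrays, a difference of -1.56 (adjusted p = 0.0216 from limma). PSMB6 stood at -0.15 and -0.25 and 0.27 and 0.34, a difference of 0.51 (adjusted p = 0.0401 from limma) that did not pass with the replicate block, Agilent's log ratio or the deposited values. PSMB7 stood at -0.51 and -0.59 and -0.20 and -0.04, a difference of 0.43 that did not pass (adjusted p = 0.0748 from limma). In GALNT3 KO it was called lower than Ctrl (adjusted p = 0.0358 from limma), a call lost in 7 of 14 alternatives. Between the groups, PSMB5 fell where its induced counterpart PSMB8 rose, PSMB6 rose by less than PSMB9, and PSMB7 did not pass the test where PSMB10 fell. Of the 5 genes on the constitutive list, with PSME3 and PSME4, 1 was higher and 1 lower between the groups, where 11.9% of all genes were in each direction.

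**Figure D3:**
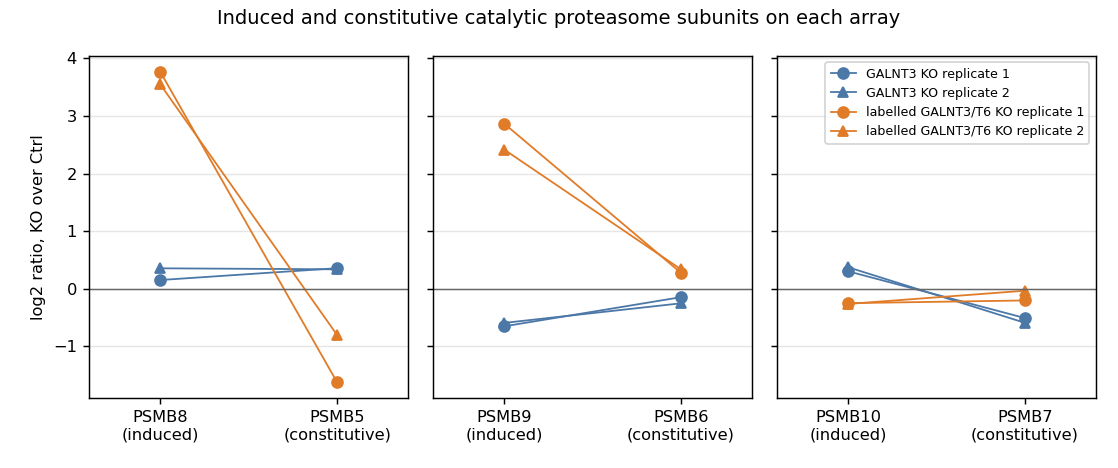
Log2 ratio of KO over Ctrl (y axis) of each interferon-induced catalytic subunit beside the constitutive subunit it replaces, with a line for each array (GALNT3 KO in blue, arrays labelled GALNT3/T6 KO in orange). In the first panel the orange lines run from 3.77 and 3.55 down to -1.63 and -0.81, and in the third panel all 4 arrays lie between -0.59 and 0.37.

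The other 4 genes of peptide supply did not pass the test between the groups. PSME1 and PSME2 form the interferon-induced cap that opens the proteasome. PSME1 stood at -0.61 and -0.34 on the GALNT3 KO arrays and 0.66 and 2.03 on the GALNT3/T6-labelled arrays, higher than Ctrl in the second group (mean 1.34, adjusted p = 0.0286 from limma), with a difference of 1.82 that just missed (adjusted p = 0.0545) and passed with the mean of its probes (1.59, adjusted p = 0.0345) and with the replicate block. Its partner PSME2 stood at -0.09 and 0.07 and -0.68 and -0.10 and passed no test. The trimming peptidases followed PSME1 in direction. ERAP1 stood at -0.04 and 0.06 and 0.27 and 0.90, called higher than Ctrl in the second group (adjusted p = 0.0423 from limma), and in GALNT3 KO replicate 1 the KO signal was too dim to count as well above background. The ERAP1 call was lost in 7 of 14 alternatives, Agilent's log ratio among them. ERAP2 stood at -0.59 and -0.13 and 0.05 and 0.55 and passed no test with its brightest probe, while with the mean of its probes it was called higher between the groups (0.72, adjusted p = 0.0137). By the brightest probe all 4 of these genes had the higher of the 2 values of the second group on replicate 2, by 0.50 to 1.37, and the second ERAP2 probe had it on replicate 1.

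Among the 7 genes of peptide transport and loading, TAP1 and TAPBP were higher between the groups, and the general chaperones of the endoplasmic reticulum were not called. TAP1, a subunit of the peptide pump, stood at 0.39 and 0.31 on the GALNT3 KO arrays and 1.27 and 1.56 on the GALNT3/T6-labelled arrays. TAPBP, which holds empty class I chains at the pump, stood at 0.48 and 0.43 and 1.44 and 1.81. Both genes were above Ctrl on all 4 arrays, and about 1 log2 unit more so in the second group. The difference was 1.07 for TAP1 (standard error 0.15, adjusted p = 0.00952 from limma) and 1.17 for TAPBP (standard error 0.16, adjusted p = 0.00961 from limma). The 3 dimmer probes of TAPBP gave only 0.17 to 0.24, and with the mean of its 4 probes the difference was 0.45 (adjusted p = 0.0457).

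TAP2, the other part of the pump, did not follow TAP1. It stood at 0.43 and 0.35 on the GALNT3 KO arrays and 0.50 and 0.24 on the GALNT3/T6-labelled arrays, above Ctrl on every array, with a difference of -0.02 (standard error 0.14). In the second group TAP2 was called higher than Ctrl (adjusted p = 0.0375 from limma), a call lost in 9 of 14 alternatives. The groups overlapped fully. TAPBPL, a tapasin-like peptide editor, lay between -0.14 and 0.15 and passed no test. The chaperones CALR, CANX and PDIA3, which fold class I chains among many other glycoproteins, passed no test in any comparison, with differences of 0.52, 0.41 and 0.06. Their ratios disagreed within the second group, where CALR stood at -0.51 and 0.48, CANX at -0.32 and 0.11 and PDIA3 at -0.28 and 0.59. A second CANX probe gave 1.12, and with the mean of both probes CANX was called higher between the groups (0.76, adjusted p = 0.0187). In a list of 6 other chaperones of the same compartment, 0 were called between the groups by limma, where 11.9% of all genes were in each direction. UGGT1 and ERP29 were called lower than Ctrl on the GALNT3/T6-labelled arrays, where 23.1% of all genes were.

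**Figure D4:**
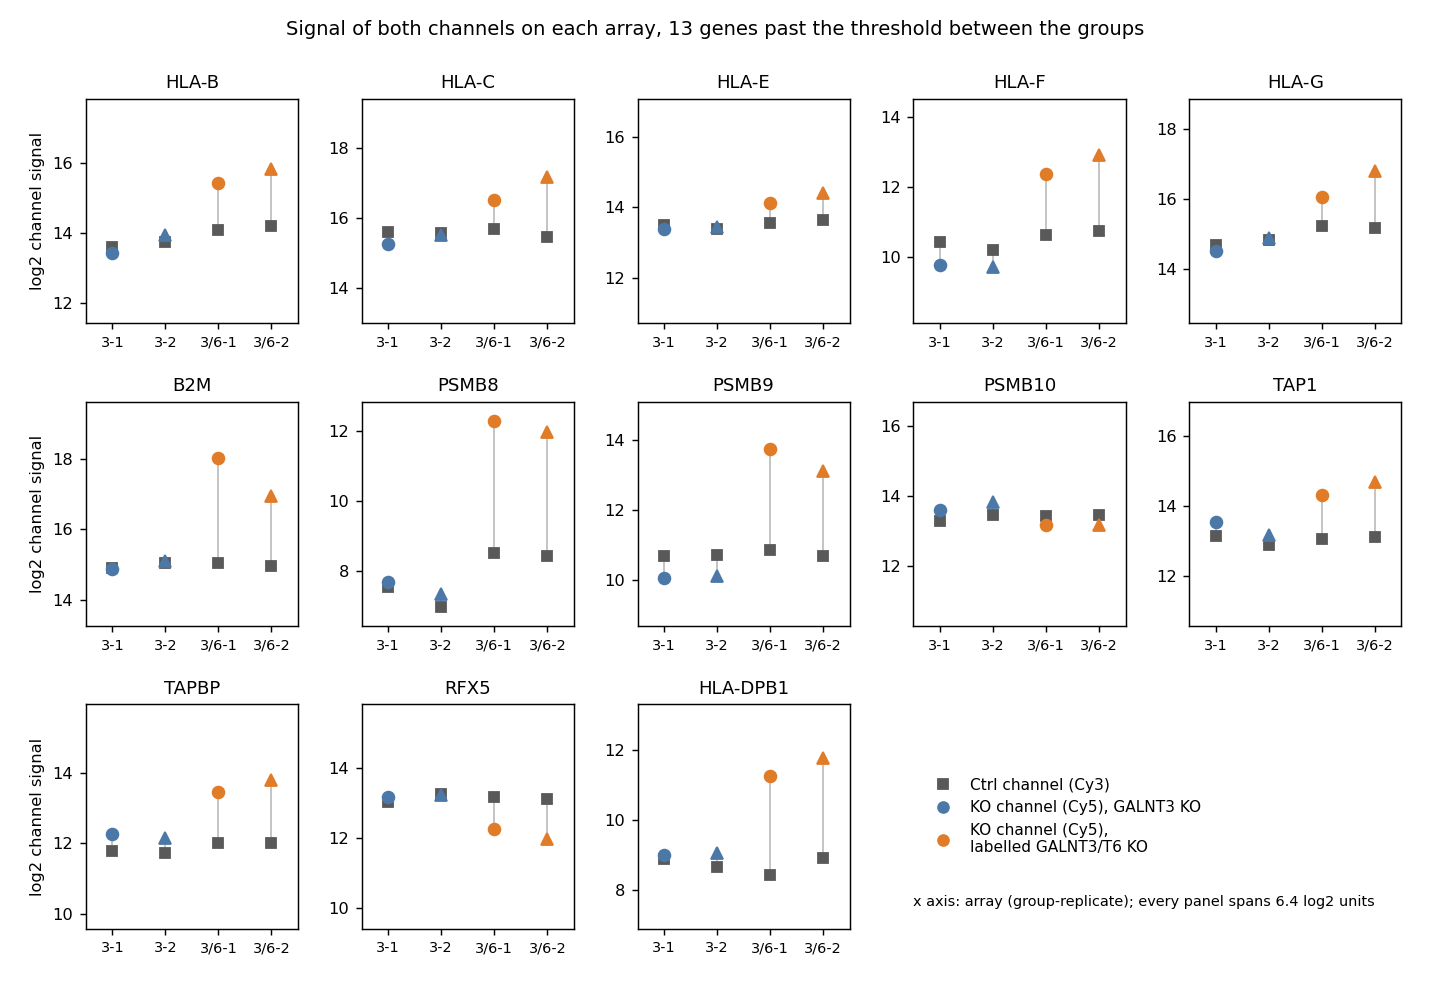
Log2 signal of the Ctrl channel (grey squares) and of the KO channel (blue for GALNT3 KO, orange for the GALNT3/T6-labelled arrays) on each of the 4 arrays, for the 13 genes past the threshold between the groups, with every panel spanning the same number of log2 units. The Ctrl squares of B2M, PSMB9 and TAP1 stay nearly level while the orange points rise, whereas the Ctrl squares of PSMB8 rise from 6.98 to 8.52.

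The Ctrl channel was read for the other called genes as well, since it is the denominator of each ratio. The labels describe Ctrl the same way on every array, and whether the same RNA was used on each is not stated. For HLA-B it was 13.61 and 13.75 on the GALNT3 KO arrays and 14.10 and 14.20 on the GALNT3/T6-labelled arrays. For B2M it ran from 14.91 to 15.05 over all 4 arrays and for TAP1 from 12.89 to 13.16, both far less than the change in the KO channel, which for B2M went from 14.87 and 15.09 to 18.03 and 16.94.

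None of the 3 transcription regulators was higher between the groups. NLRC5, the coactivator of class I genes, stood at 0.30 and 0.84 on the GALNT3 KO arrays and 0.71 and 0.31 on the GALNT3/T6-labelled arrays. These values were above Ctrl on every array, overlapped between the groups and passed no test, with a difference of -0.06 (standard error 0.25). CIITA, the coactivator of class II genes, stood at 0.44 and 0.33 and 0.56 and 0.52, called higher than Ctrl in the second group (adjusted p = 0.00684 from limma) and near the threshold in the first (0.0529), with a difference of 0.16 (adjusted p = 0.449). RFX5, the DNA-binding subunit of the RFX complex used at both classes of promoter, stood at 0.15 and -0.05 and -0.91 and -1.14. It fell by 1.03 against Ctrl in the second group and differed by -1.08 between the groups (standard error 0.15, adjusted p = 0.00927 from limma), the lowest difference of the 36 members.

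Factors that act at these promoters without being members gave mixed directions. Of 8 such genes, 1 was higher and 2 were lower between the groups, where 11.9% of all genes were called in each direction. RFXANK, a second RFX subunit, stood at 0.01 and 0.20 on the GALNT3 KO arrays and -1.18 and -0.90 on the GALNT3/T6-labelled arrays (difference -1.15, adjusted p = 0.00911 from limma). NFYA and NFYB, subunits of the CCAAT-binding factor, went opposite ways. NFYA stood at 0.78 and 0.46 and at a mean of -1.86 (difference -2.48, adjusted p = 0.00156 from limma, and -1.28 with the mean of its probes), and NFYB at -0.71 and -0.81 and 1.57 and 1.65 (difference 2.37, adjusted p = 0.000692 from limma).

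The interferon signaling list held 18 genes, of which 7 were higher and 1 was lower between the groups, where 11.9% of all genes were in each direction. Against Ctrl, 10 were higher and 3 lower on the GALNT3/T6-labelled arrays, where 24.8% and 23.1% of all genes were. IRF7, a regulator of interferon genes, stood at 0.05 and 0.01 on the GALNT3 KO arrays and 3.29 and 3.29 on the GALNT3/T6-labelled arrays. Its difference was 3.26 (adjusted p = 0.000414 from limma), and with the mean of its probes 1.93. Its log2 signal in the Ctrl channel was 7.96 and 7.50 on the GALNT3 KO arrays and 10.71 and 11.74 on the others, a wider shift of the denominator than for PSMB8, and its part in the result was not tested. IRF9, part of the complex that acts downstream of type I interferon, differed by 1.85 (adjusted p = 0.00912) and IFNGR1, a chain of the interferon gamma receptor, by 1.81 (adjusted p = 0.00921), both from limma. With the mean of its probes IRF9 differed by 0.94. The kinase JAK1 stood at -0.11 and -0.30 and 0.52 and 1.19 (difference 1.06, adjusted p = 0.043). That call was lost with median centring, with the replicate block and without either GALNT3 KO array. JAK2 stood at 0.03 and -0.22 and -0.39 and -0.36 and did not pass between the groups. In the second group it was called lower than Ctrl (adjusted p = 0.031 from limma), a call lost in 7 of 14 alternatives. IRF1, an activator of many class I pathway genes, was above Ctrl on every array at 0.41 and 0.49 and 0.74 and 0.81. It was called higher than Ctrl in both groups (adjusted p = 0.042 and 0.0023 from limma). The first of these calls was lost in 7 of 14 alternatives. The IRF1 difference of 0.32 between the groups did not pass (adjusted p = 0.125 from limma).

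Of the 11 class II genes, 8 were called higher and 1 lower than Ctrl on the GALNT3/T6-labelled arrays, where 24.8% and 23.1% of all genes were. Between the groups 1 of 11, HLA-DPB1, passed the test and was higher, where 11.9% of all genes were. HLA-DPB1, a beta chain of the DP heterodimer, stood at 0.12 and 0.40 on the GALNT3 KO arrays and 2.84 and 2.87 on the GALNT3/T6-labelled arrays. Its 2 probes differed by 2.59 and 3.04, and the brighter one by 2.59 (standard error 0.14, adjusted p = 0.00087 from limma), or 6.03-fold. HLA-DPA1, the alpha chain that pairs with it, stood at -0.05 and 0.47 and 0.93 and 1.72. The 2 groups of HLA-DPA1 did not overlap, but the arrays of each group lay 0.52 and 0.80 apart, and its difference of 1.11 did not pass (standard error 0.33, adjusted p = 0.0777 from limma).

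HLA-DRA, the nearly invariant alpha chain of DR, was the dimmest member. On the GALNT3 KO arrays neither channel was well above background, so no fold is given there. On the GALNT3/T6-labelled arrays it stood at 0.51 and 1.49, with the KO channel well above background on both arrays and the Ctrl channel on 1 of them. Set between the KO channels of the groups it was at least 1.85-fold higher on the GALNT3/T6-labelled arrays, a lower bound with no test, taken against the lowest signal that counted as well above background or the signal of the probe, whichever was higher, and open to dye bias. Its probe passed the filter only through the GALNT3/T6-labelled arrays, where it was high. A test on it is therefore no support for a difference. That holds for its place among the 22 members and 8 class II genes called higher than Ctrl there. The fitted difference, taken against a ratio of 2 background signals, was 1.15 and did not pass (adjusted p = 0.0815 from limma). With Agilent's own log ratio it was 2.26 (adjusted p = 0.018 from limma).

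The other 5 class II genes called higher than Ctrl on the GALNT3/T6-labelled arrays were above Ctrl on the GALNT3 KO arrays too, and their differences between the groups were at most 0.27. HLA-DMA, a subunit of the peptide exchange factor DM, stood at 0.39 and 0.64 on the GALNT3 KO arrays and 0.65 and 0.73 on the GALNT3/T6-labelled arrays. It was the only member called in GALNT3 KO over Ctrl (mean 0.51, adjusted p = 0.0461 from limma), and its adjusted p ran from 0.00657 to 0.417 over the alternatives, with the call lost without either GALNT3 KO array. HLA-DRB1, HLA-DQA1, HLA-DQB1 and HLA-DOA were positive on all 4 arrays by their brightest probes, between 0.14 and 0.51. Each was called higher than Ctrl in the second group, with differences between the groups of 0.01, 0.27, 0.13 and 0.04. These calls were lost in 9, 3, 8 and 10 of 14 alternatives in the same order, and 2 dimmer HLA-DOA probes were below Ctrl on both arrays of the second group. The same level of ratio was measured for CD79A and ITGAM, which mark B cells and myeloid cells, but not over the whole list of immune markers. Of the 10 tested, 3 were called higher than Ctrl on the GALNT3/T6-labelled arrays and 1, CD3E, lower, where 24.8% and 23.1% of all genes were. PTPRC stood at 0.05 and 0.07 there and CD14 at 0.06 and 0.12. CD79A stood at 0.48 and 0.57 and 0.60 and 0.58 and ITGAM at 0.51 and 0.52 and 0.49 and 0.50. Cy5 was always KO, so a dye effect on these probes cannot be told apart from KO.

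CD74, the invariant chain that escorts class II molecules to endosomes, was faint, with log2 signals between 6.86 and 7.46 in either channel. It stood at 0.07 and 0.20 on the GALNT3 KO arrays and -0.27 and -0.29 on the GALNT3/T6-labelled arrays, called lower than Ctrl in the second group (adjusted p = 0.0478 from limma) with a difference of -0.42 that did not pass (adjusted p = 0.0697). The call against Ctrl was lost in 9 of 14 alternatives, and the difference passed with Agilent's log ratio (-0.73, adjusted p = 0.0242). HLA-DMB, the partner of HLA-DMA, stood at 0.38 and -0.03 and -0.26 and -0.25 and passed no test with its brightest probe, while with the mean of its probes it was called lower between the groups (-0.79, adjusted p = 0.0305). CTSS, a protease that trims the invariant chain, stood at -0.08 and -0.32 and -0.06 and 0.01 and passed no test. Among 5 other genes of endosomal processing, CTSB and CTSD were higher between the groups, by 2.43 (adjusted p = 0.00116 from limma) and 1.56 (adjusted p = 0.00656), and 0 were lower, where 11.9% of all genes were in each direction. These 2 proteases are lysosomal enzymes of most cell types.

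MICA and MICB, ligands of the activating receptor NKG2D on NK and T cells, carry no peptide and do not pair with B2M. MICA stood at 0.04 and 0.25 on the GALNT3 KO arrays and -0.36 and -0.82 on the GALNT3/T6-labelled arrays. MICB stood at -0.43 and -0.40 and -0.88 and -1.55. Both fell against Ctrl in the second group, by 0.59 and 1.22, with adjusted p = 0.0251 and 0.00567 from limma, and the groups did not overlap, as for 31.0% of all genes in that direction. The MICA call was lost in 6 of 14 alternatives, the replicate block among them, and the MICB call in 2, the mean of its probes among them. Their differences of -0.73 and -0.80 did not pass (adjusted p = 0.0615 and 0.0844) but did with median centring. The 3 MICB probes disagreed: the brightest gave -0.80, another 0.16 and the third 2.04, so the direction of MICB depends on the probe. Among the other NKG2D ligands tested, 4 genes, ULBP2 was higher between the groups, at 0.31 and 0.20 and 1.56 and 1.92 (difference 1.49, adjusted p = 0.00503 from limma), and 0 were lower. The share of all genes called was 11.9% in each direction. RAET1G was not analysed here.

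The probes could be compared within 23 members. In 15 of them all probes differed in the same direction and in 8 they did not, while in 13 members a single probe passed the filter. The 8 include HLA-G and MICB, and otherwise genes whose brightest probe differed by less than 0.2 between the groups.

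The 11 members called higher between the groups had mean log2 ratios of 0.67 to 3.66 on the GALNT3/T6-labelled arrays and -0.63 to 0.46 in GALNT3 KO. The 11 members called higher against Ctrl alone had 0.28 to 1.34 and -0.48 to 0.51, with differences between the groups of -0.02 to 1.82. By role, the share called higher between the groups was 6 of 6 for class I, 2 of 7 for peptide supply, 2 of 7 for transport and loading, 0 of 3 for regulators, 1 of 11 for class II and 0 of 2 for stress ligands. Over all genes it was 11.9%. The median difference by role was 1.46, 0.66, 0.41, -0.06, 0.17 and -0.77 in the same order, against -0.00 over all genes.

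Position on the genome also divided the members. By the probe coordinates of the files (hg19), 21 members lie on chromosome 6, from HLA-F at 29693013 to 29693072 to TAPBP at 33267718 to 33267777. Of these 21, 10 were higher between the groups and 0 lower, with a median difference of 1.07. Of the 15 members elsewhere, 1 was higher (B2M, at 45007773 to 45007832 on chromosome 15) and 2 were lower (PSMB10, at 67968547 to 67968731 on chromosome 16, and RFX5, at 151313336 to 151313395 on chromosome 1), with a median of 0.17. Other genes in the same stretch of chromosome 6 numbered 159, of which 18 (11.3%) were higher and 10 (6.29%) lower, with a median difference of 0.04. On chromosome 6 outside the stretch, 172 of 1240 (13.9%) were higher and 126 (10.2%) lower, with a median of 0.03. This comparison was chosen after the values were seen and is a description.

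How far these calls rest on a single array was checked by leaving out each. Without GALNT3 KO replicate 1, PSMB8 (3.31), PSMB9 (3.24) and HLA-DPB1 (2.45) kept their call between the groups. Without GALNT3 KO replicate 2, the same 3 genes and HLA-F (2.58) did. The other genes kept their direction without the call in both cases, where a single GALNT3 KO array was assumed to vary like the other group. Without replicate 1 or replicate 2 of the GALNT3/T6-labelled arrays, all 13 genes called between the groups kept their direction in both cases. A single array of that group was there assumed to vary like the GALNT3 KO pair. Those fits therefore cannot show how far the calls rest on the spread of the second group.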

How the data were processed

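The authors scanned Agilent 2-colour whole human genome arrays and deposited spot intensity values and a log10 ratio for each array, made with Agilent Feature Extraction (8.5.1.1 per the submitters' processing notes, 10.7.3.1 per the file headers). The deposited value table held the same log10 ratios to 3 decimals and served as an alternative. Probe coordinates are hg19, per the file headers. From the deposited mean signals, limma 3.58.1 (R 4.3.3) corrected the background (normexp, offset 50) and normalized the dyes (loess, control spots at weight 0). Spots flagged as outliers were left out. The brightest probe stood for a gene, among probes that both arrays of either group showed well above background in Cy3 or Cy5. Channel signals were scaled between arrays by Aquantile. Groups came from the labels, and the replicates are clones, 2 in each group, so that number limits the precision. limma fitted all 4 arrays with a mean for each group, and its moderated test with Benjamini-Hochberg adjustment ran over 27196 genes. The fit was tested on simulated data. Members called in a comparison were named with the value on each array, and of each further list the 3 genes with the largest called difference, with IRF1, JAK1, JAK2, PSMB5, PSMB6 and PSMB7 named always; 1 further gene that the rule names is not reported here. The members and lists were chosen with earlier results of these data known. Promoters and letter strings came from RefSeq (GRCh38.p14) by gene symbol. Alternatives changed the background correction, normalization, source of the ratio, filter, probe, arrays in the fit, test and replicate block.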

Additional observations from a re-analysis of the deposited data

Results flagged for a closer look

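In 13 members the effect of KO over Ctrl differed between the groups by limma's test of the difference itself (adjusted over all 27196 genes, 2 arrays in each group). The log2 difference, GALNT3/T6-labelled arrays minus GALNT3 KO, was 3.41 for PSMB8, 3.27 for PSMB9, 2.59 for HLA-DPB1, 2.50 for HLA-F, 2.48 for B2M, 1.46 for HLA-B, 1.46 for HLA-C, 1.28 for HLA-G, 1.17 for TAPBP, 1.07 for TAP1 and 0.69 for HLA-E. It was -0.60 for PSMB10 and -1.08 for RFX5. By the brightest probe, PSMB10 was the only 1 of these with both GALNT3 KO arrays above Ctrl and both other arrays below it, and PSMB9, HLA-F and HLA-C were the reverse, below Ctrl on both GALNT3 KO arrays and above it on the other 2.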

How the results depend on the processing

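Over all alternatives and genes named, 1779 values kept their direction and side of the threshold, 258 lost a call, 104 gained a call, 67 changed sign without a call and 6 changed sign with a call in either setting. Those 6 were, on the GALNT3/T6-labelled arrays over Ctrl, CTSS (0.40 with Agilent's log ratio and 0.40 with the deposited value table), PSMB6 (-0.063 with both), CANX (0.46 with the mean of all probes) and CALR (0.48 without replicate 1 of that group). Without replicate 2 of that group CALR kept its sign, at -0.51. The cause was not tested. With median centring the members called in GALNT3 KO over Ctrl were 0 higher and 2 lower, where 548 and 1783 of all 27196 genes were. The median member on the GALNT3/T6-labelled arrays was then 0.37. With Agilent's log ratio and with the deposited value table there were 0 higher in GALNT3 KO, a median of 0.17 there, 0.38 on the GALNT3/T6-labelled arrays, and, between the groups, 4 lower and a median of 0.24. Of all 27196 genes, 197 were higher in GALNT3 KO with both, and 3980 and 3977 were lower between the groups. With the mean of all probes there were 0 higher and 2 lower in GALNT3 KO, where 1221 and 1658 of all 27196 genes were. The median on the GALNT3/T6-labelled arrays was then 0.42. With the spread taken from a group's own arrays there were 8 higher and 7 lower in GALNT3 KO, and 14 and 2 on the GALNT3/T6-labelled arrays. The same setting called 4588 and 4873 of all 27196 genes in GALNT3 KO. On the GALNT3/T6-labelled arrays it called 3996 and 4331 of them. The methods' t-test called 0 members after adjustment in every comparison, and 4, 9 and 12 at an unadjusted p of at most 0.05, with no share over all genes beside them.

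With the replicate block there were 0 members higher in GALNT3 KO, 18 higher and 2 lower on the GALNT3/T6-labelled arrays, and 12 higher and 1 lower between the groups. Of all 27196 genes that fit called 30 higher in GALNT3 KO, 4955 and 5131 in the second comparison, and 2535 and 2210 in the third. The replicate numbers did not pair the arrays, since deviations of same-numbered arrays correlated at -0.24 over genes. A crossed replicate block, chosen after seeing the data, called 2 higher and 2 lower, 21 and 3, and 13 and 3 members in the 3 comparisons. Over all 27196 genes it called 1493 and 2257, 6915 and 6638, and 3540 and 3782. With each array left out in turn, the median member in GALNT3 KO ran from 0.026 to 0.075. On the GALNT3/T6-labelled arrays it ran from 0.49 to 0.53, and between the groups from 0.19 to 0.56. Such fits take the spread of a single array from the other group, so their counts of calls are not compared. No background correction and no filter on dim probes changed no count by over 1.5 times. Dim signal limits HLA-DRA, CD74 and ERAP1, which lay near background. It also limits PSMB8 on the GALNT3 KO arrays, where both channels lay near background.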
